A study of Mus musculus with 3 samples.

Results

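The cytochrome P450s of families 1 to 4 were examined in the livers of mice after a sham operation, warm ischemia (WI) or ischemia followed by reperfusion (IR). Members were taken by gene symbol, as Cyp1 to Cyp4 followed by a subfamily letter, without the 5 symbols ending in -ps that mark pseudogenes. Of 77 such symbols among 23361 genes, 56 had an FPKM (mapped fragments scaled by transcript length and library total) that reached 1 in some sample, as did 10792 genes in all. The other 21 stayed under 1 in each sample and are counted but not compared. Just inside this limit were Cyp2d11, with a highest FPKM of 1.08, and Cyp2u1, with 1.18. Just outside were Cyp4f18, with a highest FPKM of 0.953, and Cyp1a1, the classical dioxin-induced gene, with 0.510. Cyp2d11, Cyp2u1, Cyp4a12a and Cyp4a12b reached 1 through the IR sample alone, so their being higher there follows in part from the limit.

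P450s are haem enzymes of the endoplasmic reticulum that insert an oxygen atom into their substrate, with electrons delivered by the reductase Por. In the liver the first 3 families oxidise drugs, pollutants, steroids and retinoids, while family 4 hydroxylates fatty acids and eicosanoids at the far end of the chain. Their transcription is set by ligand-bound receptors such as Ahr, the constitutive androstane receptor CAR (Nr1i3), the pregnane X receptor PXR (Nr1i2) and PPARα (Ppara), by the zone of the lobule, and in rodents by the sex-dependent rhythm of growth hormone.

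Each group was profiled by 1 mRNA library from liver of C57BL/6J mice, labelled male and 8 to 10 weeks old, with 6 mice per group in the study and a 12 h fast before surgery. The sham group had no vascular occlusion and was kept for 90 min before sampling. The WI group had 90 min of occlusion, and the IR group had 90 min of occlusion and 120 min of reperfusion. The sham group was therefore matched in time to the WI group and not to the IR group. The sources used here do not say whether RNA of several mice was pooled into a library. With 1 library per group no difference has a replicate check and no test was run, so differences between mice cannot be told apart from the effect of the operation.

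The 3 samples did not match in the markers of sex, although all carry the same label. The FPKM of Xist, the RNA of the inactive X chromosome, was 18.9 (sham), 20.1 (WI) and 1.29 (IR). The Y-linked genes Eif2s3y, Kdm5d and Uty were listed at 0 in the sham and WI samples, and their FPKM in the IR sample was 13.2, 0.669 and 1.28, and Ddx3y was at 0 (sham), 0.00849 (WI) and 8.58 (IR) FPKM. The sham and WI samples therefore went against the label and matched each other, while the IR sample carried Y-linked transcripts. The IR sample also had a larger summed FPKM, at 712423 against 475754 (sham) and 487912 (WI), and the neutrophil markers S100a8 and S100a9 were at 13.6 and 8.86 (sham), 9.17 and 8.07 (WI), and 212 and 204 (IR) FPKM. Of the 7 neutrophil markers 6 were higher in IR than in WI, with a median log2(FPKM + 1) difference over all 7 of 2.0, and Mpo was listed at 0 in IR. The comparison of WI with sham was weighed most for these reasons. Apart from Alb, which was listed at 0 in every sample because its locus held too many fragments (status HIDATA), the hepatocyte markers were present, with a summed FPKM of 31617, 26793 and 40865 in the sham, WI and IR samples.

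Together the members made up 3.28% (sham), 2.95% (WI) and 2.02% (IR) of each library's total listed FPKM, with a sum of 15620, 14412 and 14413 FPKM. These totals leave out loci with the status HIDATA, 1 in sham, 1 in WI and 7 in IR. The share in IR is therefore not strictly comparable with the others. All 56 members had the status OK in every sample. The number of members at 100 FPKM or more was 25 (sham), 28 (WI) and 26 (IR), so the liver's P450 message was spread over many genes. The 95% bounds that Cuffdiff gives for each value corresponded to a median coefficient of variation of 28.4%, 28.6% and 27.5% over the members. These bounds cover counting and model error within 1 library and not the spread between mice.

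Cyp2e1, which oxidises ethanol and acetaminophen around the central vein, had the highest FPKM of the members in every sample. Its FPKM was 4782 (sham), 3718 (WI) and 3139 (IR), which was 30.6%, 25.8% and 21.8% of the members' sum. Its level was highest in the sham sample, but its lower bound was 0 in all 3 samples, so the order of these levels is not resolved. In the sham sample Cyp3a11, the main PXR-responsive member of the Cyp3a group, came next, with an FPKM of 1361 there, 1202 in WI and 1419.7 in IR. Cyp2a5, a coumarin hydroxylase, followed in sham with 1268, 1489 and 608 FPKM, and ranked above Cyp3a11 in WI, and Cyp2a4, a testosterone hydroxylase, with 641, 603 and 426 FPKM. The remaining members of the leading 10 in the sham sample were Cyp3a41a, Cyp4a14, Cyp4a10, Cyp2c29, Cyp2c50 and Cyp2d26, at 623 to 381 FPKM there.

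**Figure D1:**
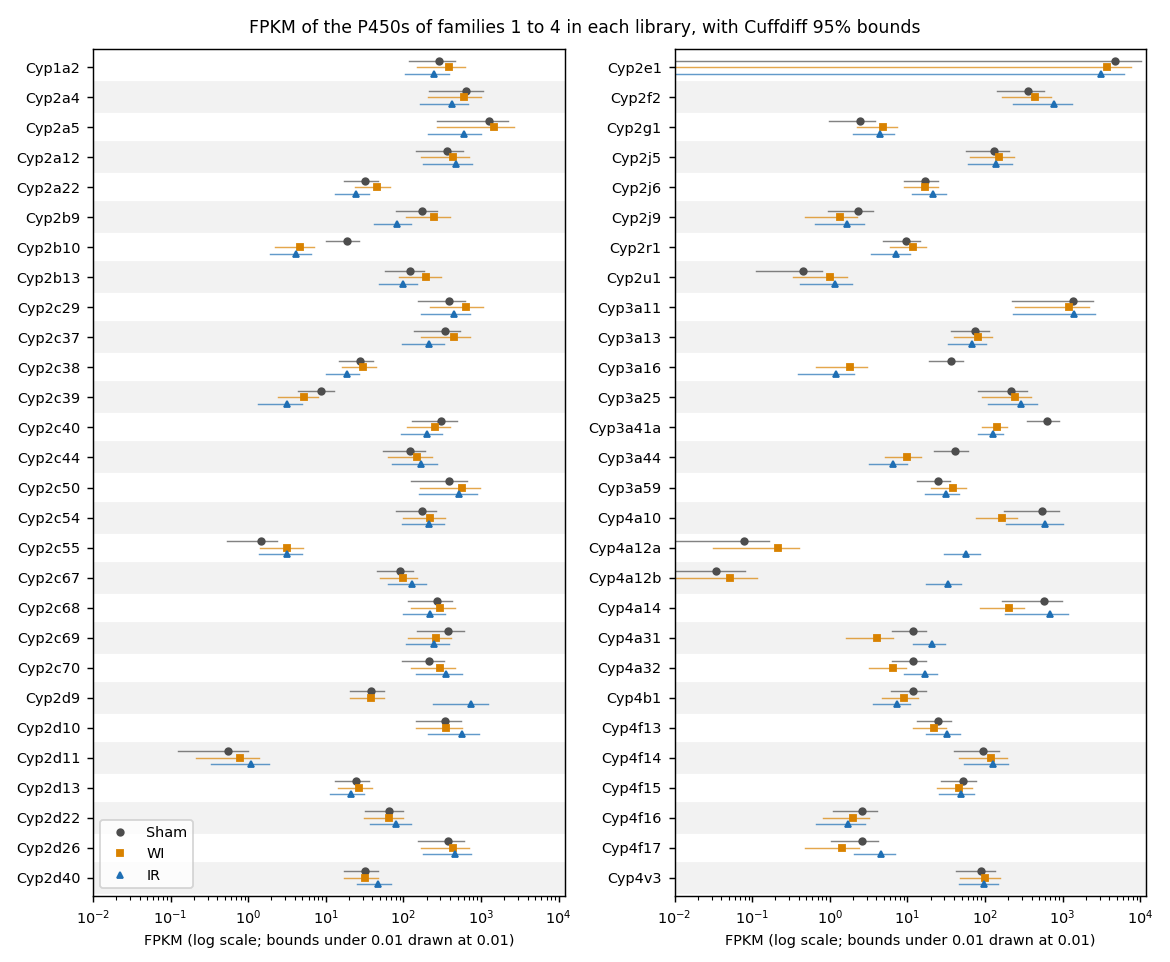
FPKM (x axis, log scale) of each of the 56 members in the sham (circles), WI (squares) and IR (triangles) libraries, with lines for the Cuffdiff 95% bounds. For most members the bounds of the 3 libraries overlap, while Cyp3a16, Cyp3a41a, Cyp3a44 and Cyp2b10 sit lower in the WI and IR libraries than in sham, and Cyp2d9, Cyp4a12a and Cyp4a12b sit higher in the IR library than in the other 2.

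Warm ischemia against sham asks what 90 min without blood flow did to these messages. No member was at least 2-fold higher in the WI sample on the scale of FPKM + 1, and 7 of 56 (12.5%) were at least 2-fold lower. Among all genes that passed the limit the shares were 0.751% higher and 1.1% lower. The 7 were Cyp3a16, Cyp3a41a and Cyp3a44 of the Cyp3a cluster, Cyp2b10, and the fatty acid hydroxylases Cyp4a10, Cyp4a14 and Cyp4a31. Over all 56 members the median log2(FPKM + 1) difference was 0.12, with 35 above 0 and 21 below, beside a median of 0.02 over all genes. With the samples rescaled to a common sum or by the median ratio, 31 were above 0 and 25 below. The median was then 0.08 under both, beside -0.01 and -0.02 over all genes. The lower calls were therefore gathered in 3 subfamilies rather than shared by the P450s as a whole.

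By the stricter rule that the 95% bounds of both samples do not overlap, 4 of 56 members (7.14%) were lower in the WI sample and none was higher. All genes gave 0.483% lower and 0.195% higher under this rule. The 4 were Cyp3a16, Cyp3a41a, Cyp3a44 and Cyp2b10. The bounds of the 3 Cyp4a genes overlapped between the samples.

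**Figure D2:**
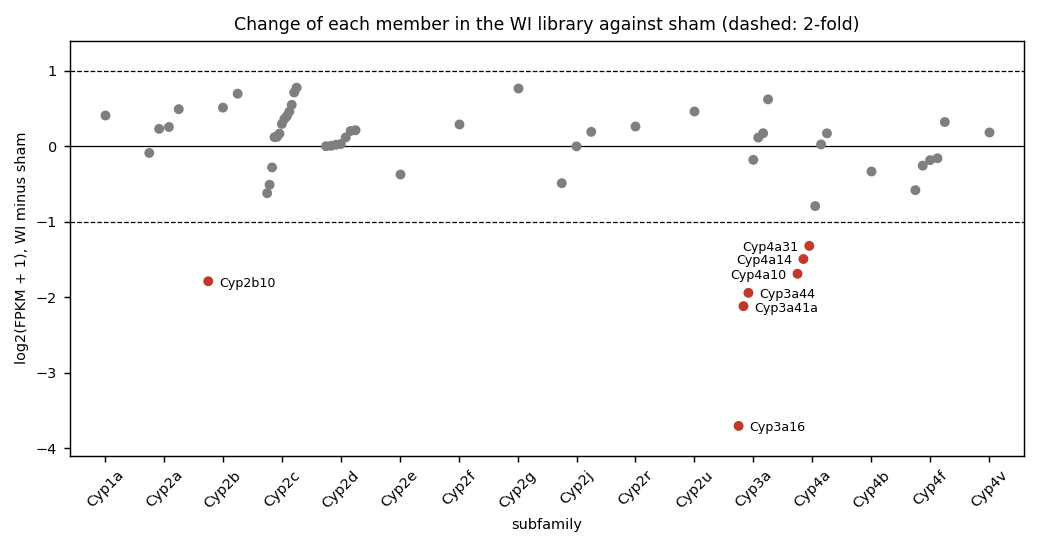
Difference in log2(FPKM + 1) between the WI and sham libraries (y axis) for each member, grouped by subfamily (x axis), with dashed lines at 2-fold and members at least 2-fold lower named in red. The 7 named genes lie between -1.32 and -3.71, and no member reaches the upper dashed line.

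Cyp3a16, Cyp3a41a and Cyp3a44 are steroid and drug hydroxylases whose adult expression is known to be female-biased. Cyp3a16 (chr5:145436309-145469723, mm10) was at 36.1 (sham), 1.84 (WI) and 1.21 (IR) FPKM. The sham bounds of 19.3 to 52.9 lay far above the WI bounds of 0.672 to 3.01, and the log2(FPKM + 1) difference of WI from sham was -3.71. Cyp3a41a (chr5:145558664-145584730) was at 623 (sham), 143 (WI) and 126 (IR) FPKM, and its WI level was 4.37 times lower than the sham level, with a log2 difference of -2.12. Cyp3a44 (chr5:145773983-145805874) was at 41.3, 10.0 and 6.51 FPKM, with bounds of 21.9 to 60.8 in sham against 5.21 to 14.8 in WI and a log2 difference of -1.94. In all 3 genes the sham sample stood alone, and the WI and IR samples were low with bounds that overlapped each other.

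Their neighbours did not share this. Cyp3a11, which lies next in the cluster, was 1361 FPKM in sham and 1202 in WI, a log2 difference of -0.18, and its bounds overlapped widely. Cyp3a25 was 214 and 241 FPKM, Cyp3a59 24.6 and 38.4 FPKM, and Cyp3a13, which lies apart on the same chromosome, 75.4 and 81.8 FPKM. Summed over the subfamily, Cyp3a FPKM was 2375 in sham and 1718 in WI, and the 3 low genes accounted for most of this, with a sum of 700.3 in sham and 154.5 in WI.

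The 250 bases before the transcript start show how alike these genes are in their proximal promoters. They are given from RefSeq on GRCm38.p6, the assembly also called mm10, on the minus strand of chromosome 5, with capitals for TATAA, an element of core promoters, and for AGGTCA, the unit that many nuclear receptors bind. The gene that the files name Cyp3a41a lies at the place where RefSeq puts Cyp3a41b, so the window of Cyp3a41b is shown. Cyp3a11 is shown as the abundant neighbour that kept a similar level. The windows lie at chr5:145469724-145469973 (Cyp3a16), chr5:145584731-145584980 (Cyp3a41b), chr5:145805875-145806124 (Cyp3a44) and chr5:145879855-145880104 (Cyp3a11). RefSeq extends Cyp3a16 to 145469740 and Cyp3a44 to 145805891, so the last bases of these windows lie inside the gene. Distances are counted from the start used for each window.
Cyp3a16: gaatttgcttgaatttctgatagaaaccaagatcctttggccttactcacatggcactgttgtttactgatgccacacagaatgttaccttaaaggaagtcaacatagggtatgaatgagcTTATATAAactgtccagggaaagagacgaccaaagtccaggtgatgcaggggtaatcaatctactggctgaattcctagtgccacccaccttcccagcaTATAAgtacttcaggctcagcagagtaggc
Cyp3a41b: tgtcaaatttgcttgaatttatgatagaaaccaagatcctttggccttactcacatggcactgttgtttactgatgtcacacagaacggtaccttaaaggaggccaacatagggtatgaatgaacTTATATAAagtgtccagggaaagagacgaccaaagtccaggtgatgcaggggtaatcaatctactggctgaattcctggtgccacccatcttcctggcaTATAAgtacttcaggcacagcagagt
Cyp3a44: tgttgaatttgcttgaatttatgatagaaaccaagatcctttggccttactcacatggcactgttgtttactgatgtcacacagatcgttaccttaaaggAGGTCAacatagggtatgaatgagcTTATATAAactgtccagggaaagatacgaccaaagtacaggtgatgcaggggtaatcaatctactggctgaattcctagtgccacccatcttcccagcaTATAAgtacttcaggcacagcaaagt
Cyp3a11: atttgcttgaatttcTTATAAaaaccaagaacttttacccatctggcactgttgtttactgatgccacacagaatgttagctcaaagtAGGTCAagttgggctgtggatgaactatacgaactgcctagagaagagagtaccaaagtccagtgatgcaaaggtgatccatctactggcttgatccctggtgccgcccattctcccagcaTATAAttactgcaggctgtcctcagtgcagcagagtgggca

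The windows of Cyp3a16, Cyp3a41b and Cyp3a44 were 91.7% to 94.8% identical to each other in a global alignment, and 72.5% to 76.6% identical to that of Cyp3a11. Each of the 3 held overlapping TATAA letters near the middle of the window and another at 30, 26 and 26 bases before the start, and Cyp3a11 had its last TATAA at 41 bases. AGGTCA was found in Cyp3a44 at 150 bases and in Cyp3a11 at 162 bases before the start, and not in the other 2 windows. Of the 44 members with a window in the RefSeq table, 27 (61.4%) held TATAA on either strand against 23.5% of 27025 windows of all genes, and 11 (25%) held AGGTCA against 13.8%. The letters TNGCGTG, the core that Ahr binds, were in 1 member window (2.27%, all genes 4.16%), and the STAT5 palindrome TTCNNNGAA in 2 (4.55%, all genes 7.18%). These are matches of letters, not sites shown to be used.

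**Figure D3:**
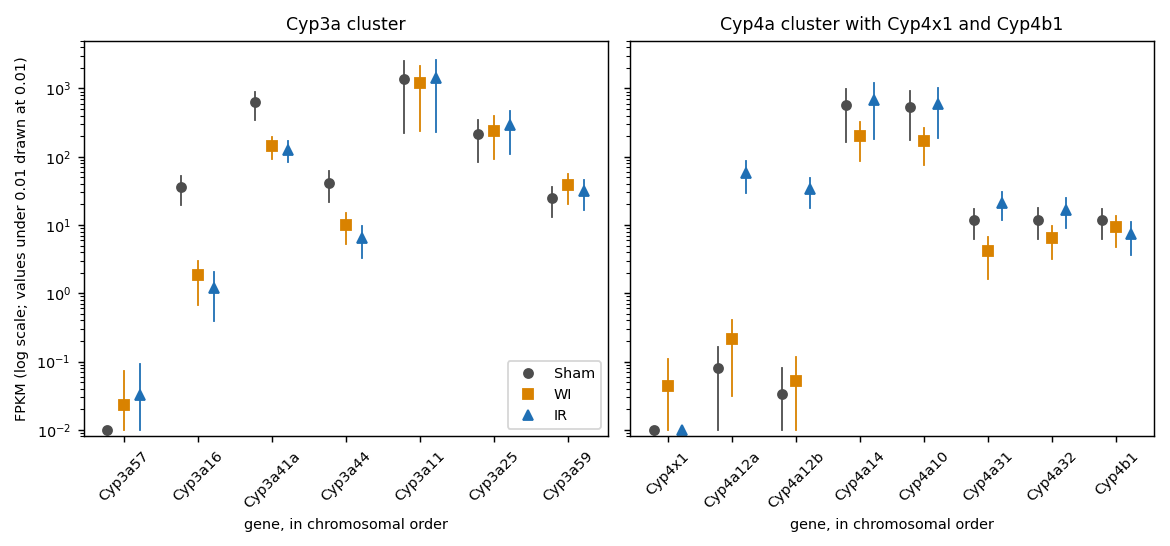
FPKM (y axis, log scale) of the genes of the Cyp3a cluster and of the Cyp4a cluster with its flanking genes, in chromosomal order (x axis), in the sham (circles), WI (squares) and IR (triangles) libraries with Cuffdiff 95% bounds. In the Cyp3a cluster Cyp3a16, Cyp3a41a and Cyp3a44 are lower in the WI and IR libraries than in sham, and in the Cyp4a cluster Cyp4a14, Cyp4a10 and Cyp4a31 are lowest in the WI library.

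Cyp2b10, the classical phenobarbital-induced target of CAR, was the other gene with separate bounds. Its FPKM (chr7:25897664-25926624) was 18.6 (sham), 4.67 (WI) and 4.16 (IR). The WI level was 3.98 times lower than the sham level, with bounds of 9.98 to 27.2 in sham and 2.19 to 7.15 in WI and a log2(FPKM + 1) difference of -1.79. Cyp2b10 and its relatives Cyp2b9 and Cyp2b13 are all listed as female-biased. Unlike Cyp2b10, Cyp2b9 and Cyp2b13 had higher levels in WI than in sham, at 251 against 176 FPKM and at 197 against 121 FPKM. Their log2 differences were 0.51 and 0.70, with overlapping bounds. Of the 3 members of the subfamily only Cyp2b10 was past 2-fold. The windows of 250 bases before the start of Cyp2b10 (chr7:25897408-25897657) and Cyp2b9 (chr7:26173159-26173408), on the plus strand of the same assembly and with the same letters in capitals, were 71% identical, and only that of Cyp2b9 held TATAA or AGGTCA. The start used for Cyp2b9 lies downstream of its RefSeq gene start at 26173350, so its TATAA falls inside the RefSeq gene. The Cyp2b10 window ends just before its RefSeq gene start, so the windows are not placed alike.
Cyp2b10: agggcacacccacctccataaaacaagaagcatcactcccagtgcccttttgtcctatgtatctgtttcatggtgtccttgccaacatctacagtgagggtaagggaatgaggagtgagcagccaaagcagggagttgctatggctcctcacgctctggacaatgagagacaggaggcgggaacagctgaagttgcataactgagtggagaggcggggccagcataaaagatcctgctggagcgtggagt
Cyp2b9: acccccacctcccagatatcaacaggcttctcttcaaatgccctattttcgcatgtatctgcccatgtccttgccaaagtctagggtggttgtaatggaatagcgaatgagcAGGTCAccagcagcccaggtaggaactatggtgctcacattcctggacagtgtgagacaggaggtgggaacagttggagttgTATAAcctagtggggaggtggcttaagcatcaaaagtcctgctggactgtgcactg

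Of the Cyp4a genes, omega-hydroxylases of fatty acids, 4 of 6 had their lowest level in the WI sample, among them Cyp4a10 and Cyp4a14, which PPARα induces in fasting. The other 2, Cyp4a12a and Cyp4a12b, were under 1 FPKM in both the sham and WI samples. Cyp4a10 (chr4:115518287-115533649) was at 544 (sham), 168 (WI) and 599 (IR) FPKM, a log2(FPKM + 1) difference of -1.69 between WI and sham. Cyp4a14 (chr4:115486200-115496141) was at 578, 205 and 685 FPKM, with a difference of -1.49. Cyp4a31 was at 11.8, 4.11 and 21.1 FPKM, with a difference of -1.32, and Cyp4a32 at 11.9, 6.47 and 16.7 FPKM, with a difference of -0.79 that stayed under 2-fold. The WI sample was the lowest of the 3 in all 4 genes, and their summed FPKM was 1145 in sham, 382.9 in WI and 1323 in IR. The bounds of WI and sham overlapped in each, for Cyp4a10 at 75.9 to 259.7 against 175 to 912.

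The transcript set of the Cyp4a cluster shares sequence, which bears on how reads were split among its genes. Of the 50-base windows of the Cyp4a10 transcript, 30.5% occurred in a transcript of another gene, and the share was 46.8% for Cyp4a32, 17.6% for Cyp4a31 and 0% for Cyp4a14. Cyp4a14 thus had a low WI level without any shared window. Cyp3a41a shared 98.6% of its windows, most of them with Cyp3a41b, whereas Cyp3a44 shared 18.2%, Cyp3a16 10.5% and Cyp2b10 7.87%. Without the 23 members that shared at least 20% of their windows, 5 of the remaining 33 were still at least 2-fold lower in WI. They were Cyp2b10, Cyp3a16, Cyp3a44, Cyp4a14 and Cyp4a31. Among all genes the share was 1.1%.

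In the other subfamilies no member was past 2-fold in FPKM + 1. In Cyp2c, whose members make epoxides of arachidonic acid and oxidise drugs, 10 of 13 genes were above 0, with a median log2(FPKM + 1) difference of 0.30 and a summed FPKM of 2714 in sham and 3284 in WI. Cyp2c29 was at 393 and 645 FPKM and Cyp2c50 at 391 and 572 FPKM, while Cyp2c39, a retinoic acid hydroxylase, was at 8.57 and 5.22 FPKM. The largest positive log2 differences, 0.78 for Cyp2c55 and 0.77 for Cyp2g1, belonged to genes of low level, at 1.46 and 2.43 FPKM in sham and 3.21 and 4.85 in WI. Their ratios of FPKM were 2.20 and 2.0, and with a pseudocount of 0.1 Cyp2c55 was past 2-fold. All 7 Cyp2d genes lay within 0.21 of sham on the log2 scale, with a median of 0.03 that became -0.01 when the samples were rescaled to a common sum or by the median ratio, and the most abundant in sham, Cyp2d26, was at 381 and 442 FPKM.

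The remaining groups are given by their most abundant genes. Cyp1a2, the caffeine-oxidising target of Ahr, was at 291 FPKM in sham and 389 in WI, and Cyp2f2, the periportal naphthalene oxidase, at 359.6 and 442 FPKM. Cyp2j5 was at 131 and 150 FPKM, Cyp2r1, a vitamin D hydroxylase of the liver, at 9.62 and 11.8 FPKM, and Cyp2u1 at 0.450 and 0.997 FPKM, a ratio of 2.22 at a level under 1. Cyp4b1 was at 11.8 and 9.19 FPKM, and Cyp4v3 at 88.1 and 101 FPKM. Of the 5 Cyp4f genes only Cyp4f14, a leukotriene hydroxylase, was above sham, at 94.6 and 119 FPKM, and the median log2 difference of the 5 was -0.18. The bounds of sham and WI overlapped in each of these genes.

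**Figure D4:**
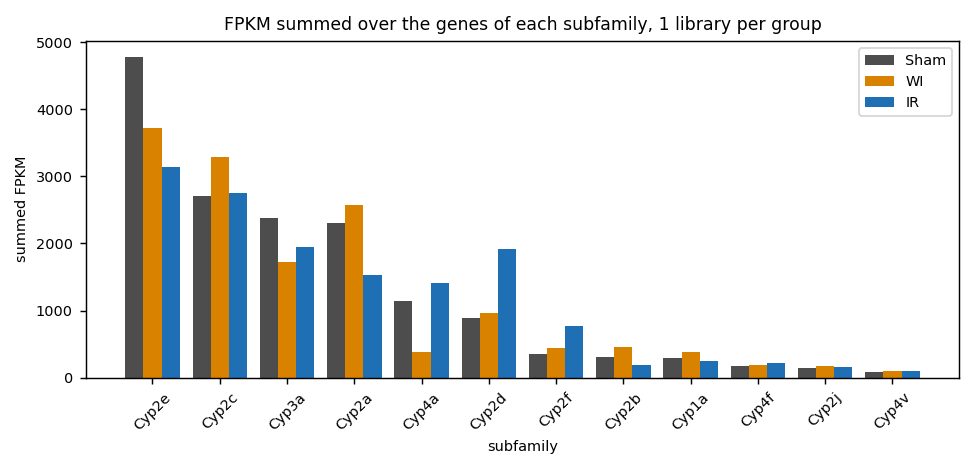
FPKM summed over the genes of each subfamily (y axis, from 0; x axis, subfamily) in the sham, WI and IR libraries, 1 bar per library with no error. Cyp4a is lowest in WI at 383 against 1145 in sham and 1413 in IR, and Cyp2d is highest in IR at 1923.

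Of the 11 members listed as female-biased in liver 6 (54.5%) were among the 7 lower genes, beside 1.1% of all genes. The 11 had a median log2 difference of -1.49 between WI and sham with 2 above 0 and 9 below. Xist was at 18.9 and 20.1 FPKM in these samples. The 41 members on neither sex-biased list had 1 lower call, Cyp4a31, beside the same 1.1% of all genes, and a median log2 difference of 0.17. Outside the P450s, the female-biased liver gene Sult3a1 was at 75.8 FPKM in sham and 31.2 in WI, whereas A1bg was at 27.8 and 30.9 FPKM. Cux2, a female-biased regulator, was at 3.50 and 4.89 FPKM. Sult3a1 was thus lower in the WI sample, while A1bg and Cux2 were slightly higher.

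**Figure D5:**
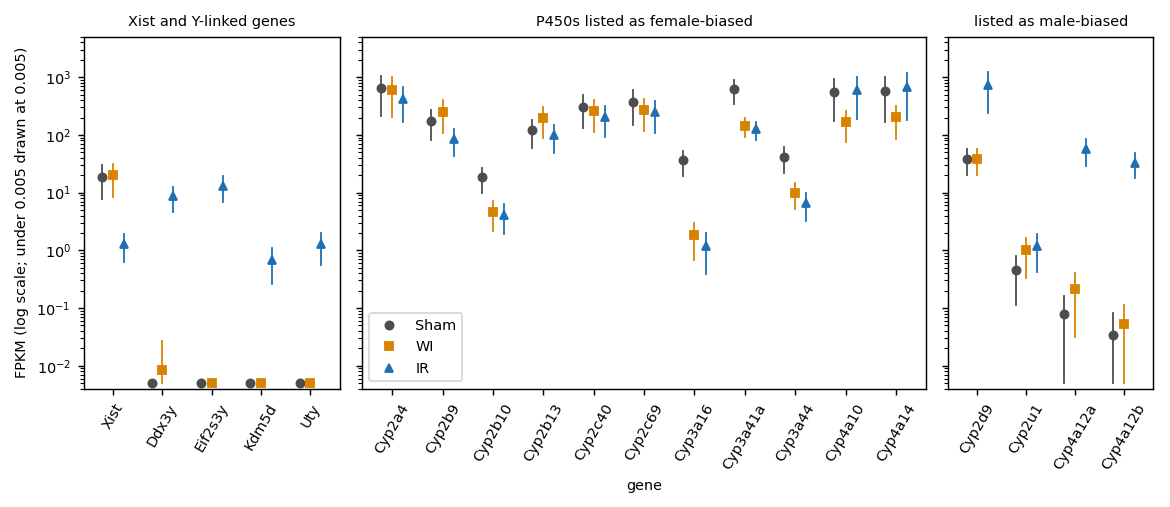
FPKM (y axis, log scale) of Xist and 4 Y-linked genes, of the 11 female-biased members and of the 4 male-biased members (x axis) in the sham (circles), WI (squares) and IR (triangles) libraries with Cuffdiff 95% bounds. Xist is near 20 in the sham and WI libraries and 1.29 in the IR library, and Cyp2d9, Cyp4a12a and Cyp4a12b are high in the IR library alone.

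Regulators and partners of these enzymes had a median difference near 0 between WI and sham, with 3 genes past 2-fold. Of the 23 that passed the limit, 2 (8.70%) were at least 2-fold higher and 1 (4.35%) lower, beside 0.751% and 1.1% of all genes, with a median log2(FPKM + 1) difference of 0.02. The receptors themselves were close, with Ppara at 41.2 and 43.2 FPKM, Nr1i3 (CAR) at 50.8 and 52.9 FPKM, Nr1i2 (PXR) at 32.9 and 25.6 FPKM and Ahr at 9.17 and 8.17 FPKM. The genes past 2-fold were the repressors Nr0b2, at 11.6 and 30.0 FPKM, and Bcl6, at 1.52 and 5.20 FPKM, and the liver factor Onecut1, at 9.88 and 2.64 FPKM. Por, the electron donor of all these enzymes, was at 376 and 233 FPKM, Alas1, the first enzyme of haem synthesis, at 271 and 180 FPKM, and the cytochrome Cyb5b at 53.5 and 103 FPKM.

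Other targets of the same receptors were set beside the members. Of 28 PPARα targets outside the P450s 25 passed the limit, and all of these were below 0 in WI against sham, with a median log2(FPKM + 1) difference of -0.52, and 6 (24%) were at least 2-fold lower, beside 1.1% of all genes. They included Pdk4, the kinase that shuts off pyruvate oxidation in fasting, at 135 FPKM in sham and 16.1 in WI, and the acyl-CoA thioesterase Acot1, at 107 and 19.9 FPKM. Of 20 CAR and PXR targets, 2 (10%) were higher and 1 (5%) lower, beside 0.751% and 1.1% of all genes, with a median of 0.11. The higher ones were the glutathione transferases Gsta1, at 1.25 and 12.6 FPKM, and Gsta2, at 19.5 and 53.6 FPKM. Of 5 Ahr targets 1 was higher, the same Gsta1, with a median of 0.31.

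Position in the lobule and other cell types were checked with marker lists. The 10 pericentral markers outside the members had a median log2 difference of 0.34 between WI and sham, and 11 periportal markers of 0.04, with no call in either. All 8 Kupffer cell markers were lower in WI, with a median of -0.79 and a summed FPKM of 409 in sham and 230 in WI. Of them 2 (25%) were at least 2-fold lower, beside 1.1% of all genes. The medians were -0.48 for 7 endothelial, -0.22 for 7 stellate, 0.10 for 5 cholangiocyte, -0.35 for 5 erythroid, -0.29 for 2 lymphocyte, -0.12 for 5 neutrophil and 0.03 for 9 hepatocyte markers. The part of these shifts in the members' values was not tested. In whole liver, fewer cells of a type and less RNA per cell cannot be told apart.

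Reperfusion was addressed by comparing IR with WI. These samples also differed in Xist, Y-linked and neutrophil transcripts, and the WI sample serves in both comparisons. All 5 erythroid markers (100%) were at least 2-fold higher in IR, with a median log2 difference of 2.07, beside 5.78% of all genes. Of 8 Kupffer cell markers 6 were below 0, with a median of -0.61, and 2 (25%) were at least 2-fold lower, beside 1.43%. Medians were 0.63 for cholangiocyte, 0.33 for hepatocyte, 0.07 for stellate, -0.11 for endothelial and -0.47 for lymphocyte markers. The part of these shifts in the members' values was also not tested. Of the 56 members 8 (14.3%) were at least 2-fold higher in IR and 3 (5.36%) lower, beside 5.78% and 1.43% of all genes. The higher genes were all 6 Cyp4a members, Cyp2d9 and Cyp4f17, and the lower ones Cyp2a5, Cyp2b9 and Cyp2c37. The bounds were apart and higher for 4 members, Cyp2d9, Cyp4a12a, Cyp4a12b and Cyp4a31, and lower for none, beside 3.21% and 0.381% of all genes. Rescaled to a common sum per sample, which moved the median of all genes by -0.42, the split became 6 (10.7%) higher and 11 (19.6%) lower, beside 2.86% and 6.98% of all genes, with 5 of the 6 Cyp4a genes still higher. The sums used for this rescaling leave out the HIDATA loci, 1 in WI and 7 in IR.

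Cyp4a10 and Cyp4a14, both listed as female-biased, were near their sham level in the IR sample. For these 2 genes reperfusion and the sex markers of the IR sample cannot be told apart. Their FPKM of 599 and 685 compared with 168 and 205 in WI, log2(FPKM + 1) differences of 1.83 and 1.74, and with 544 and 578 in sham, differences of 0.14 and 0.25 that became -0.44 and -0.34 with a common sum. Cyp4a31 and Cyp4a32 were at 21.1 and 16.7 FPKM, differences of 2.11 and 1.25 from WI, and Cyp4f17 at 4.52 FPKM against 1.42. The 25 PPARα targets had a median log2 difference of 0.53 from WI, which was 0.01 with a common sum. Of them 7 (28%) were at least 2-fold higher and none lower, beside 5.78% and 1.43% of all genes. Ppara itself was at 17.2 FPKM in IR against 43.2 in WI.

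The male-specific members separated the IR sample from both others. Cyp2d9, a testosterone hydroxylase of male liver, was at 38.3 FPKM in sham, 38.5 in WI and 739 in IR, with IR bounds of 242 to 1235 above those of both other samples. Cyp4a12a was at 0.0792, 0.216 and 57.4 FPKM and Cyp4a12b at 0.0338, 0.0521 and 33.1 FPKM, and these share 48.9% and 49.4% of their windows with each other. The male-biased genes outside the P450s went the same way, with Elovl3 at 3.91, 1.31 and 33.3 FPKM, Hsd3b5 at 0.116, 0.319 and 21.7 FPKM and Mup20 at 63.2, 95.2 and 13053 FPKM. The female-biased genes named above were mixed. In IR, A1bg was higher than in both other samples at 65.5 FPKM, Cux2 was lower than in both at 2.87, and Sult3a1 lay between them at 36.2. Reperfusion and the sex markers of the IR sample cannot be told apart for these genes. The fourth male-biased member, Cyp2u1, was at 1.18 FPKM in IR and within 2-fold of WI.

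The 3 members lower in IR than in WI belong to subfamilies that metabolise drugs. Cyp2a5 was at 608 FPKM in IR against 1489 in WI, a log2(FPKM + 1) difference of -1.29, Cyp2b9 at 83.4 against 251, a difference of -1.58, and Cyp2c37 at 216 against 448, a difference of -1.05. The bounds overlapped in each. Cyp2b9 is also listed as female-biased, so for it reperfusion and the sex markers of the IR sample cannot be told apart. Cyp1a2 was at 248 FPKM against 389. In this contrast all 10 pericentral markers outside the P450s were also lower, with a median of -0.60, or -1.04 with a common sum. Of them 2 (20%) were at least 2-fold lower, beside 1.43% of all genes. With a common sum 8 (80%) were, beside 6.98%. The 11 periportal markers outside the P450s had a median of 0.13, or -0.41 with a common sum, and the periportal member Cyp2f2 was at 771 FPKM against 442.

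Against sham, the IR sample had 4 members (7.14%) at least 2-fold higher and 7 (12.5%) lower, beside 5.35% and 2.15% of all genes. The higher ones were Cyp2d9, Cyp4a12a, Cyp4a12b and Cyp2f2, at 771 against 359.6 FPKM, and the lower ones Cyp3a16, Cyp3a41a, Cyp3a44, Cyp2b10, Cyp2b9, Cyp2a5 and Cyp2c39. Bounds were apart for 3 higher (5.36%) and 4 lower (7.14%) members, beside 2.69% and 1.11% of all genes, and the 4 lower ones were the Cyp3a trio and Cyp2b10. With a common sum the split was 3 (5.36%) higher and 14 (25%) lower, beside 2.39% and 9.11% of all genes. The Cyp3a trio had log2 differences of -4.07 (Cyp3a16), -2.29 (Cyp3a41a) and -2.49 (Cyp3a44), and Cyp2b10 of -1.93. These share the sham sample with the WI comparison, so they are not separate evidence that sham was high. Of the 7 lower members 5 are listed as female-biased. For these, reperfusion and the sex markers of the IR sample cannot be told apart in this comparison. Of the 41 members not listed as sex-biased, 1 was higher, Cyp2f2, and 2 were lower, Cyp2a5 and Cyp2c39, beside 5.35% and 2.15% of all genes.

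The P450s of other families, which make bile acids and steroids and break down retinoic acid, were set beside the members. Of 18 symbols 9 passed the limit, with a median log2(FPKM + 1) difference of -0.39 between WI and sham. Of these 1 (11.1%) was at least 2-fold lower in WI, Cyp26b1 at 3.73 and 0.765 FPKM, beside 1.1% of all genes. In IR against sham 4 (44.4%) were lower and 1 (11.1%) higher, beside 2.15% and 5.35% of all genes. The higher one was Cyp7b1, at 8.31 FPKM in sham, 10.0 in WI and 75.0 in IR. The difference in calls between these and families 1 to 4 was not tested.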

How the data were processed

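Per the labels, total RNA of liver was made into Illumina libraries. The authors mapped read pairs to mm10 with TopHat2 2.0.9 and deposited FPKM values per gene, with 95% bounds and a status, from Cuffdiff of Cufflinks 2.0.2 (versions from the submitters' processing notes). The files hold no counts. The spacing of low FPKM values gave no reliable depth, since only 334 of 1402 (WI) and 270 of 1172 (IR) low genes lay near a common step, so the precision of a value is given by its bounds.

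Python 3.11.15 with pandas 2.3.3 and numpy 2.4.6 was used to compute differences in log2(FPKM + 1), which understate the change of low genes, over genes whose FPKM reached 1 in some sample. Calls were made at 2-fold, or where the 95% bounds of both samples (status OK) did not overlap. Each group held 1 library, so no test was made. Shared 50-base windows were counted between protein-coding transcripts of the older NCBIM37 annotation, joined by symbol (55 of 56 members), and promoters came from RefSeq (44 of 56) and were aligned with Biopython 1.88. Figures were drawn with matplotlib 3.10.9. The calling step was run on sham FPKM values changed by a known fold without noise, which checks the code and not the error of a call.

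Named members were those past 2-fold in any comparison, the 10 highest in sham and the highest of each subfamily. The other members given with values (such as Cyp2b13, Cyp2c55, Cyp3a13, Cyp3a25 and Cyp3a59) were chosen after their values were seen. Other genes came from lists of regulators, receptor targets, zones, sex and cell types, and a listed item is not reported here. Members and lists were chosen with earlier results of these data known. Alternatives were other pseudocounts, filters, folds and scalings, status OK in all samples, and leaving out sex-biased members or, chosen after seeing the data, members that share windows.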

Additional observations from a re-analysis of the deposited data

How the results depend on the processing

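The 7 genes lower in WI than in sham stayed the same 7 under a pseudocount of 0.1, every filter and both rescalings, and a pseudocount of 5 lost Cyp4a31. At 4-fold 2 were lower and without sex-biased members 1, and 1 was higher with a pseudocount of 0.1 and 5 at 1.5-fold. For IR against WI, 8 were lower at 1.5-fold, 0 at 4-fold, 11 with a common sum and 1 without members that share windows, and 4 were higher at 4-fold, 3 without sex-biased members and 3 without those that share windows. For IR against sham, 2 were higher with an FPKM of at least 1 in all samples, 11 at 1.5-fold and 1 without either set of members, and 13 were lower at 1.5-fold, 3 at 4-fold, 14 with a common sum and 2 without sex-biased members. The members' median log2 difference became 0.0017 (WI against sham) and 0 (IR against sham) with no filter, since genes at 0 enter, -0.51 (IR against WI) and -0.41 (IR against sham) with a common sum, and 0.32 (IR against sham) without sex-biased members. Bounds that do not overlap numbered 0 (WI against sham), 1 (IR against WI) and 0 (IR against sham) without sex-biased members, and 1 (IR against WI) and 3 (IR against sham) without members that share windows. Of 168 differences of single members (56 in 3 comparisons), 52 moved with a common sum, 17 with a pseudocount of 5, 11 with a pseudocount of 0.1 and 0 with the median ratio. The cause of these changes was not tested. No paired analysis was possible because each group has 1 library. Bounds were wide for members near 1 FPKM, such as Cyp2d11 with a coefficient of variation of 38.8% in sham. They were also wide for the most abundant member, Cyp2e1, at 57.0% in sham. The part of depth in these widths was not tested.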
